A study of Mus musculus with 6 samples.

Results

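The nuclear genes for subunits of the oxidative phosphorylation machinery were followed in macrophages that had been differentiated in culture from mouse bone marrow. Members were protein-coding genes picked by symbol alone. They were the Nduf genes of the a, b, c, s and v series, Sdha to Sdhd, and the genes whose symbols begin with Uqcr, Cox4 to Cox8 or Atp5, with the Ndufaf assembly factors left out. Of 56691 gene rows 85 were members: 37 genes of complex I, 4 of complex II, 8 of complex III, 18 of complex IV and 18 of complex V. Macrophages of 3 mice, called a, b and c, received 2 µM thiothixene, an antipsychotic drug that blocks dopamine receptors, or its solvent DMSO, for 24 h on day 6 of culture. Both treatments were applied to cells of every mouse, which gave 3 libraries a group, and the labels name no genetic change. Libraries are called by treatment and mouse, so that DMSO b is the control library of mouse b. The sources used here do not give the strain, sex or age of the mice. The series title concerns the continued uptake of dead cells, and the comparison made here asked whether transcripts of the respiratory subunits differed with the drug.

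Complexes I and II pass electrons from NADH and succinate to ubiquinone, complex III passes them on to cytochrome c, and complex IV hands them to oxygen. Complexes I, III and IV pump protons across the inner mitochondrial membrane, and complex V, the ATP synthase, uses that gradient to make ATP. Most subunits are encoded in the nucleus and a few core subunits in mitochondrial DNA, while complex II is wholly nuclear. In macrophages the balance between this machinery and glycolysis is known to shift with activation state and with the load of ingested material.

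Across the members, subunit transcripts lay somewhat lower with thiothixene than with DMSO on average, and this average rested on a single control library. All 79 tested members had a log2 fold change (thiothixene over DMSO) below 0, with a median of -0.51, and 0 of them passed the test. One control, DMSO b, was the highest of the 6 libraries for 74 of the 79, and without it the median turned to 0.23. Complex II, with 4 genes and the longest median coding sequence of the complexes, varied least between libraries.

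Coding sequences of 4 short subunits show the range of behaviour that the values below describe. Of the short members Cox7b and Cox6c differed least, while Atp5k and Uqcr11 differed by more than any other tested member with counts in all libraries. Among the tested members considered, those with coding sequences under 300 bases and a mean of at least 10 CPM, they have the narrowest and the widest ranges between libraries. Each is given from start codon to last sense codon on the coding strand, and the capitals mark the 50-base window that holds the most G and C. Sequences and gene spans (GRCm38) come from the GENCODE annotation.
Cox7b, chrX:106015700-106022450, plus strand, 240 bases, 47.5% G and C: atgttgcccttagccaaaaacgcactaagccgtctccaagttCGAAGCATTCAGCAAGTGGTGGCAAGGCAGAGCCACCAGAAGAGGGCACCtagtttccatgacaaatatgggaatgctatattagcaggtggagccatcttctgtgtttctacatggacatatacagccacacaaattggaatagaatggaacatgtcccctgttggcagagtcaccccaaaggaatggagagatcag
Cox6c, chr15:35925886-35938246, minus strand, 228 bases, 50.4% G and C: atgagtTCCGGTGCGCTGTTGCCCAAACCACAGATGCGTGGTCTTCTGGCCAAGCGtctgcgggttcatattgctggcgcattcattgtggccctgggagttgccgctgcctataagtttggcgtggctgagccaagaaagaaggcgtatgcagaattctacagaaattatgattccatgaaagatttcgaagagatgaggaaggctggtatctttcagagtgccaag
Atp5k, chr5:108433244-108434448, minus strand, 213 bases, 54.0% G and C: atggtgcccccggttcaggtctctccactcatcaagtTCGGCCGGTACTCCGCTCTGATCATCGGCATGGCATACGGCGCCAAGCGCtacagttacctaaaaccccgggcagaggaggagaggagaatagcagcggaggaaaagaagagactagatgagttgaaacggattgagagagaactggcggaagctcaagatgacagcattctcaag
Uqcr11, chr10:80402997-80406830, minus strand, 168 bases, 60.7% G and C: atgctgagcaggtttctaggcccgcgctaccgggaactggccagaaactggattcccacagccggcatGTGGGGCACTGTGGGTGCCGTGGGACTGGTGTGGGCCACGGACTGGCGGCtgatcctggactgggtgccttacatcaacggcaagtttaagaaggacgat
The highest library held 2.30 times the lowest for Cox7b and 2.33 times for Cox6c, against 75.9 times for Atp5k and 89.95 times for Uqcr11. The densest window held 60.0%, 62.0%, 66.0% and 74.0% G and C in that order.

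Libraries held 10472349 to 22297520 counts assigned to genes, with the lowest total in DMSO b. Of 8 macrophage markers, 7 were abundant enough to be tested, and Itgam, which encodes the integrin CD11b, was listed at 0 in 5 libraries and at 0.0493 CPM (counts scaled to the size of the library) in thiothixene c. Their summed level was 10800 to 14320 CPM in 5 libraries and 18590 in DMSO b. The higher sum lay mainly in Lyz2, at 11650 CPM there against 5008 to 7044 elsewhere. Cd68 (2173 CPM against 691 to 1411) and Cd14 (123 CPM against 28.5 to 56.8) were also highest there. Mpeg1 (1799 CPM) and Mertk (93.2 CPM) were at their lowest in DMSO b, and Adgre1 and Csf1r were at neither end. Neutrophil and granulocyte precursor markers (10 of 10 found, none at 0 in all libraries) summed to 335 to 437 CPM in 5 libraries and to 848 in the same DMSO library. Stromal markers summed to 55.3 to 290 CPM, with Lum listed at 0, and lymphoid, dendritic, mast cell and erythroid lists to at most 7.15 CPM, with Ms4a1, Cd3d and Hbb-bs among those at 0. None of these lists had a called gene. Over all genes, 3 libraries stood apart from the rest: thiothixene a, DMSO b and DMSO c. Across tested genes, the correlation of log2 CPM ranged from 0.825 (DMSO b and DMSO c) to 0.981 (thiothixene b and thiothixene c). A slope of each gene's deviation on coding length separated DMSO b, at -0.34 per doubling of length, from the others, at 0.02 to 0.13. On coding GC DMSO b and DMSO c lay at opposite ends, at 0.56 and -0.75 per 10 percentage points. Thiothixene a was at -0.39 and the rest at 0.11 to 0.27. Reads not aligned made up 4.98% of all rows' counts in thiothixene a and 4.52% in DMSO c, against 1.85% to 2.31% elsewhere.

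Of the 85 members 79 were abundant enough to be tested: 35 of complex I, 4 of complex II, 8 of complex III, 14 of complex IV and 18 of complex V. Ndufa13, Cox7b2, Cox8b and Cox8c were listed at 0 in all 6 libraries, and Ndufa4l2 and Cox6b2 had 13 and 15 counts in all. The upper limit that a count of 0 allows was 0.128 CPM in the deepest library and 0.335 CPM in the shallowest, counting error alone considered. Ndufa13 encodes a subunit that respiring cells need. Its exons overlap those of Tssk6 on the other strand over 30.0% of their length in the annotation. The sources used here do not say how the counting treated such overlaps. Ndufb6 has a larger overlap on the other strand, 39.0% with Smim27, and held 3296 counts in all. Why Ndufa13 was listed at 0 was not tested.

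In edgeR's quasi-likelihood test with Benjamini-Hochberg adjustment over all 14856 tested genes, 0 of the 79 members were called, as were 0.0% of all tested genes. The smallest adjusted p over all genes was 0.9998. At an unadjusted p under 0.05 there were 0 members, against 1.72% of all tested genes, and the smallest unadjusted p of a member in edgeR's test was 0.131. DESeq2 called 0 members, against 0.00815% of the genes it tested. A log2 fold change below 0 was found for 79 of 79 members and for 54.7% of all tested genes, and the medians were -0.51 and -0.04. The 95% interval of every member included 0, with median bounds of -1.64 and 0.65. Thiothixene libraries lay wholly below the DMSO libraries for 0 members, against 2.77% of tested genes, and wholly above for 0, against 3.88%. In bulk RNA, fewer cells of a type and less RNA per cell cannot be told apart.

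By complex, median log2 fold changes were -0.51 for complex I, -0.15 for complex II, -0.55 for complex III, -0.61 for complex IV and -0.43 for complex V. Within complexes the members spanned -0.98 to -0.02 (I), -0.39 to -0.13 (II), -0.88 to -0.16 (III), -0.76 to -0.29 (IV) and -0.99 to -0.17 (V). These ranges overlap, and differences between complexes were not tested. For each gene the deviation of a library from the mean of all 6 was taken on the log2 CPM scale. The median deviation of the 79 members was -0.35, 0.06 and -0.05 in thiothixene a, b and c, and -0.25, 1.19 and -0.45 in DMSO a, b and c. A single control library was therefore high, the other DMSO libraries were lower than thiothixene b and thiothixene c, and the groups overlapped. Over protein-coding genes the same medians lay between -0.01 and 0.04.

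In DMSO b, complexes I, III, IV and V stood at median deviations of 1.27, 1.28, 1.28 and 1.11, and complex II at 0.72. It was the highest library for 74 of 79 members (93.7%), against 33.9% of all tested genes. Its level was, in the median, 2.14 times that of the next highest library and 2.86 times that of DMSO a. The 5 exceptions, listed after their values were seen, were Ndufs1, Sdha, Uqcrc2, Cox4i2 and the Atp5o identifier of longer genomic span. The lowest library was most often DMSO c, for 39 members (49.4%), against 31.6% of tested genes with annotation. DMSO a was lowest for 21 members and thiothixene a for 8, against 1320 and 1532 of 14565 such genes.

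**Figure D1:**
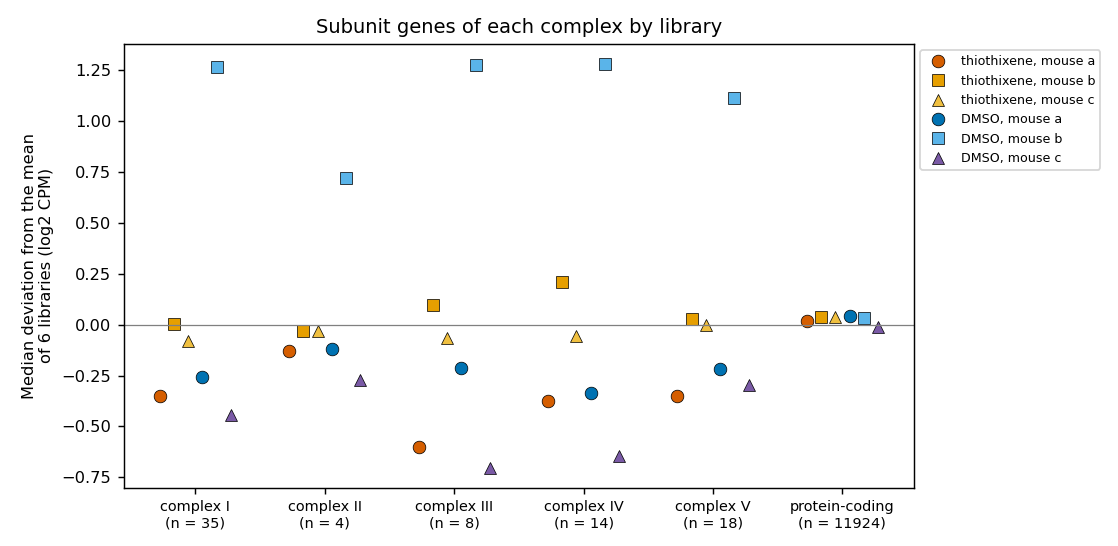
Median deviation from the mean of 6 libraries (vertical axis, log2 CPM) for tested subunit genes of each complex and for all tested protein-coding genes (horizontal axis), a symbol per library. DMSO b stands at 1.11 to 1.28 for complexes I, III, IV and V and at 0.72 for complex II, while the 6 libraries lie within -0.01 to 0.04 for protein-coding genes.

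Without DMSO b, the median log2 fold change of the 79 members was 0.23 and 61 lay above 0, against 51.4% of all tested genes. The complexes then stood at 0.24 (I, 30 above 0), 0.12 (II, 3 above 0), 0.35 (III, 6 above 0), 0.39 (IV, 11 above 0) and 0.14 (V, 11 above 0). The direction of each complex median therefore depended on that library. Without all 3 libraries that stood apart the median was 0.25. That comparison sets thiothixene b and thiothixene c against a single control library, DMSO a, whose spread is taken to equal that of the treated pair, so treatment and mouse cannot be told apart. There edgeR called 12 members higher and 1 lower, against 4.02% of genes higher and 2.97% lower. The 12 were Ndufa1, Ndufa2, Ndufa3, Ndufb6 and Ndufs6 of complex I, Uqcr11 and Uqcrq of complex III, Cox5b and Cox8a of complex IV, and Atp5e, Atp5g3 and Atp5k of complex V, and the lower one was the Atp5o identifier of longer genomic span.

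**Figure D2:**
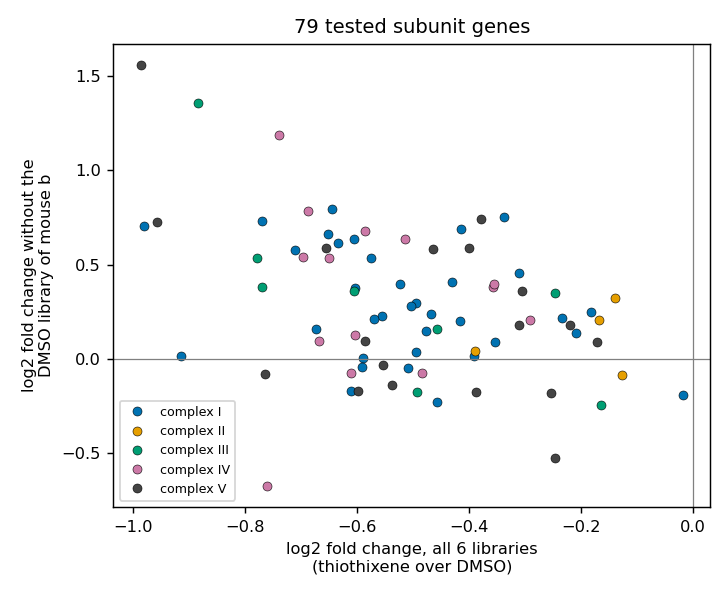
Log2 fold change (thiothixene over DMSO) of each of the 79 tested subunit genes with all 6 libraries (horizontal axis) and without DMSO b (vertical axis), coloured by complex. With 6 libraries every point lies below 0, and without that library 61 points lie above 0.

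Differences within a mouse, each between single libraries, went in different directions. Within mouse a the thiothixene library was the lower for 47 members and the higher for 32, with a median difference of -0.15 on the log2 CPM scale. For mouse b it was the lower for 77 and the higher for 2, Ndufs1 and the Atp5o identifier of longer genomic span, with a median of -1.19. For mouse c it was the higher for 53 and the lower for 26, with a median of 0.40. Thiothixene was the higher library for 47.9%, 50.6% and 51.9% of all tested genes in mice a, b and c. The difference also went with coding GC. Spearman's rho with it was -0.41, -0.46 and 0.515 for members in mice a, b and c. For 11821 other protein-coding genes it was -0.53, -0.31 and 0.68. The part of GC in the members' differences was not tested. With the mouse as a replicate block, the members' median log2 fold change was -0.27, a smaller value than without it, 77 members lay below 0, and edgeR called 0 members.

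Complexes differed by mouse too. Within mouse a the median differences were -0.04 for complex I, 0.02 for complex II, -0.42 for complex III, -0.15 for complex IV and -0.33 for complex V. Within mouse b they ran from -1.29 for complex IV to -0.59 for complex II. Within mouse c they ran from 0.19 for complex II to 0.76 for complex III. Complex II was thus nearest to 0 in each mouse.

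**Figure D3:**
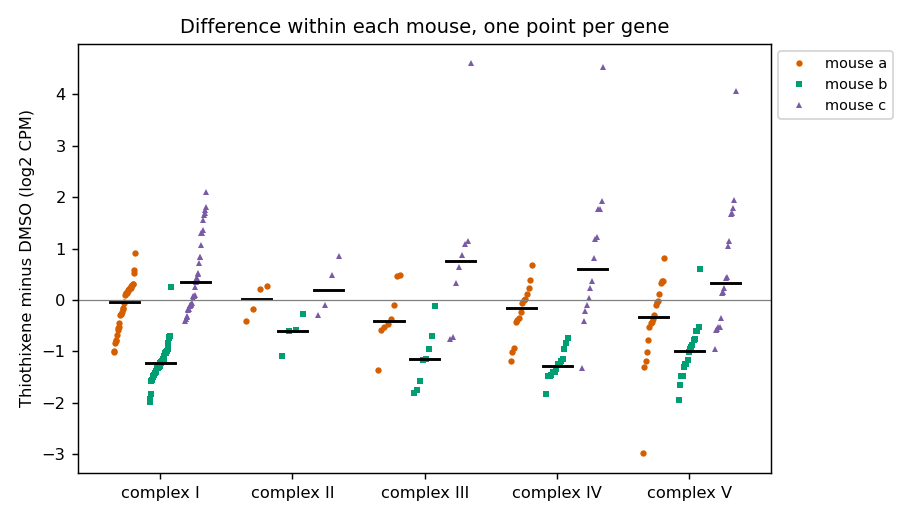
Difference between the thiothixene and the DMSO library of the same mouse (vertical axis, log2 CPM) for each tested subunit gene, grouped by complex (horizontal axis) and coloured by mouse, with bars at the medians. Medians for mouse b lie between -1.29 and -0.59, those for mouse c between 0.19 and 0.76.

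Complex I is the largest assembly of the chain. Ndufs1, which carries iron-sulfur clusters of the electron input arm, measured 97.4, 79.2 and 88.8 CPM in thiothixene a, b and c, and 90.8, 66.5 and 111 CPM in DMSO a, b and c, the order kept from here on. Its lowest library was DMSO b, the reverse of most members, and its log2 fold change of -0.02 (SE 0.29) was the closest to 0. Ndufa2, an accessory subunit, had the most negative log2 fold change of the complex, -0.98 (SE 0.82), or 0.71 without DMSO b. It measured 20.9, 44.9 and 47.7 CPM with thiothixene and 30.3, 178 and 16.2 CPM with DMSO, so the controls lay on both sides of the treated libraries. Ndufa4, named for complex I and later assigned to complex IV, measured 82.7, 89.1 and 78.7 CPM with thiothixene. Its DMSO levels were 66.8, 198 and 83.8 CPM, with a log2 fold change of -0.48 (SE 0.42). Apart from DMSO b, its libraries lay close together.

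Complex II, succinate dehydrogenase, is also an enzyme of the citrate cycle, and all 4 of its genes were tested. Sdha, the flavin-bearing catalytic subunit, measured 269, 238.5 and 242 CPM with thiothixene and 233, 288 and 296 CPM with DMSO. The highest of its libraries held 1.27 times the lowest, the smallest such ratio of any tested member, and the log2 fold change was -0.13 (SE 0.26). Sdhb, the iron-sulfur subunit, measured 114, 96.3 and 99.6 CPM with thiothixene and 94.2, 205 and 106 CPM with DMSO, a log2 fold change of -0.39 (SE 0.35). Among the membrane anchors, Sdhc measured 105, 131 and 128 CPM against 118, 199 and 92.2 CPM, a log2 fold change of -0.17 (SE 0.34). Sdhd, the other anchor, measured 59.4, 91.2 and 90.8 CPM with thiothixene, 78.8 CPM in DMSO a and 137 CPM in DMSO b, and was lowest in DMSO c. DMSO b was highest for 3 of the 4 genes, and the groups overlapped for all 4.

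Complex III transfers electrons between ubiquinol and cytochrome c. Uqcrc1, a core structural subunit, measured 129, 149 and 146 CPM with thiothixene and 138.5, 329 and 115 CPM with DMSO, a log2 fold change of -0.46 (SE 0.42). Uqcrc2, its partner core protein, measured 110, 84.9 and 83.0 CPM against 79.2, 91.9 and 141 CPM, a log2 fold change of -0.16 (SE 0.31). Its highest library was DMSO c. Uqcr11, a small supernumerary subunit with the shortest sequence printed above, measured 8.79, 42.5 and 42.7 CPM with thiothixene. Its DMSO levels were 22.9, 150 and 1.66 CPM, and the lowest of these rested on 39 counts. DMSO libraries thus held both extremes, and the log2 fold change of -0.88 (SE 1.21) became 1.36 without DMSO b.

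Complex IV, cytochrome c oxidase, has several subunits with tissue isoforms. Cox4i1, the common isoform of its regulatory subunit 4, measured 245, 253 and 236 CPM with thiothixene and 208, 707 and 251 CPM with DMSO. Outside DMSO b it ranged from 208 to 253 CPM, and the log2 fold change was -0.67 (SE 0.47). Cox6a1 measured 71.1, 165 and 160 CPM with thiothixene and 136, 439 and 46.9 CPM with DMSO, a log2 fold change of -0.65 (SE 0.72). Cox7b, the least negative of the complex at -0.29 (SE 0.38), measured 63.3, 80.7 and 63.0 CPM with thiothixene and 58.2, 134 and 61.4 CPM with DMSO. Cox4i2, the hypoxia-inducible lung isoform, was low, at 1.14, 0.698 and 0.789 CPM with thiothixene and 0.670, 1.68 and 2.13 CPM with DMSO. The groups overlapped for each of these 4 genes, and Cox4i2 stood at -0.76 (SE 0.72).

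Common isoforms predominated over tissue isoforms. Levels per kilobase of exon were used to compare genes, and each share is that of the tissue isoform in the pair's summed per-kilobase level, as a range over the 6 libraries. Cox4i2 made up 0.464% to 1.65% of the Cox4i pair, and the muscle isoform Cox6a2 0% to 1.91% of the Cox6a pair. Muscle Cox7a1 reached 2.14% to 7.09% of its pair with Cox7a2, the common isoform, which averaged 98.8 CPM per kilobase against 5.34 for Cox7a1. The Cox7a1 values rested on 20 to 73 counts a library. Cox6b2, the testis isoform, stayed at 0% to 0.222% of its pair with Cox6b1, and Ndufa4l2 at 0% to 0.846% of its pair with Ndufa4. Cox8a averaged 218 CPM per kilobase, whereas Cox8b and Cox8c were listed at 0. Cox7a2l, which helps join complexes III and IV, averaged 68.2 CPM per kilobase. Ndufa4l2 had 12 of its 13 counts in DMSO b.

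Complex V makes ATP. Atp5b, the catalytic beta subunit of the head, measured 607, 654 and 677 CPM with thiothixene and 562, 1116 and 578 CPM with DMSO, a log2 fold change of -0.22 (SE 0.34). Atp5a1, the alpha subunit that alternates with it, measured 469, 523 and 522 CPM with thiothixene and 476, 754 and 475 CPM with DMSO, a log2 fold change of -0.17 (SE 0.29). Both were high in DMSO b alone. Atp5k, which encodes the small membrane subunit e that takes part in dimer formation, measured 1.62, 37.1 and 27.4 CPM with thiothixene and 13.5, 117 and 1.54 CPM with DMSO. Its log2 fold change, -0.99 (SE 1.38), was the most negative of all members and became 1.56 without DMSO b. Low values occurred in both groups, at 34 counts in thiothixene a and 36 in DMSO c.

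The c subunit that forms the rotor ring comes from a set of genes whose mature proteins are the same. Atp5g1 supplied 10.8% to 21.3% of their summed per-kilobase level over the 6 libraries, Atp5g2 35.7% to 47.3% and Atp5g3 38.6% to 49.6%. The treatment groups overlapped for each of the 3 shares. The symbol Atp5o, for the subunit that ties the head to the stalk, is carried by a pair of identifiers whose exons overlap. The one of shorter genomic span, with 1972 exon bases, measured 13.1, 18.5 and 18.2 CPM with thiothixene and 17.7, 43.9 and 13.4 CPM with DMSO. The one of longer genomic span but 530 exon bases, ENSMUSG00000116933.2 (GRCm38, minus strand, chr16:91684398-91926982), measured 240, 254 and 248 CPM against 344, 167 and 369 CPM, and was lowest in DMSO b. All of its exon bases overlap Atp5o or Donson, so both levels are uncertain.

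**Figure D4:**
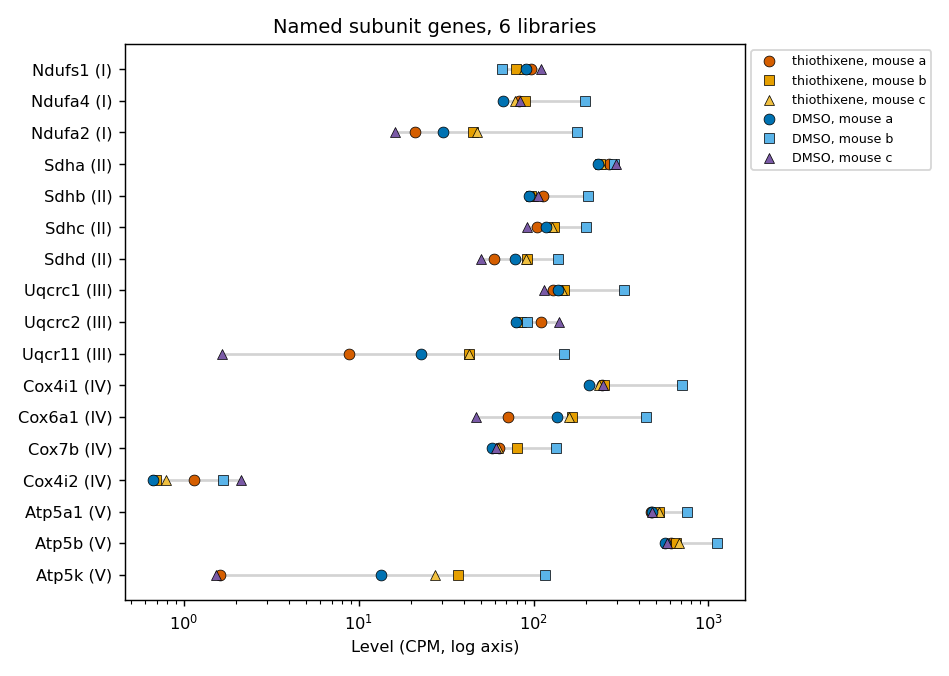
Level of subunit genes of each complex in each of the 6 libraries (horizontal axis, CPM, log scale), a symbol per library and the complex in brackets after each gene. DMSO b is the rightmost symbol for most genes, while Uqcr11 and Atp5k run from under 2 CPM to over 100 CPM.

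Summed over each library, members took 0.572%, 0.688% and 0.664% of gene counts with thiothixene and 0.614%, 1.21% and 0.582% with DMSO. Means were 0.641 ± 0.0613% and 0.801 ± 0.352% (SD, n = 3), a ratio of 0.80 that became 1.07 without DMSO b. Ratios were 0.78 for complex I, 0.92 for complex II, 0.76 for complex III, 0.74 for complex IV and 0.83 for complex V, and 1.13, 1.01, 1.10, 1.17 and 1.02 without that library. Complex II took 0.0565 ± 0.000468% of gene counts with thiothixene, nearly the same share in the 3 libraries. The make-up of the members' counts also shifted in DMSO b. Complex II made up 5.87% of member counts there and 8.13% to 9.94% elsewhere, complex V 36.2% against 40.9% to 44.6%, and complex IV 22.8% against 15.7% to 19.3%. Complex I, at 25.5% against 21.4% to 23.0%, and complex III, at 9.61% against 8.27% to 8.74%, were also at their highest there.

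Spread between libraries differed from gene to gene. The median SD of log2 CPM over 6 libraries was 0.65 for members, 0.40 for complex II and 0.73 for complex III. Over thiothixene b and thiothixene c and DMSO a, the median for members was 0.19. All tested genes with annotation had medians of 0.53 over the 6 libraries and 0.20 over that smaller set. Coding lengths under 300 bases (20 members) went with a median SD of 0.96, lengths of 300 to 600 (38 members) with 0.67 and lengths of 600 or more (21 members) with 0.42. The 4 genes of complex II had a median coding length of 676.5 bases, and the other complexes had medians of 279 to 460.5. The part of length in the small spread of complex II was not tested. Coding GC under 50% (18 members) went with 0.49, 50% to 55% (35 members) with 0.63 and 55% or more (26 members) with 0.97. Of those 26, 22 (84.6%) were lowest in DMSO c, against 32.3% of tested protein-coding genes of any GC. As a description across 79 genes that share the same 6 libraries, Spearman's rho of the SD was -0.53 with coding length and 0.51 with coding GC. For 11821 other protein-coding genes it was -0.01 and 0.21. In differences between single libraries the other genes were closer to the members. Coding length had a rho of -0.59 (members) and -0.48 (others) with log2 DMSO b minus DMSO a. Coding GC had 0.54 and 0.59 with log2 DMSO b minus DMSO c.

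**Figure D5:**
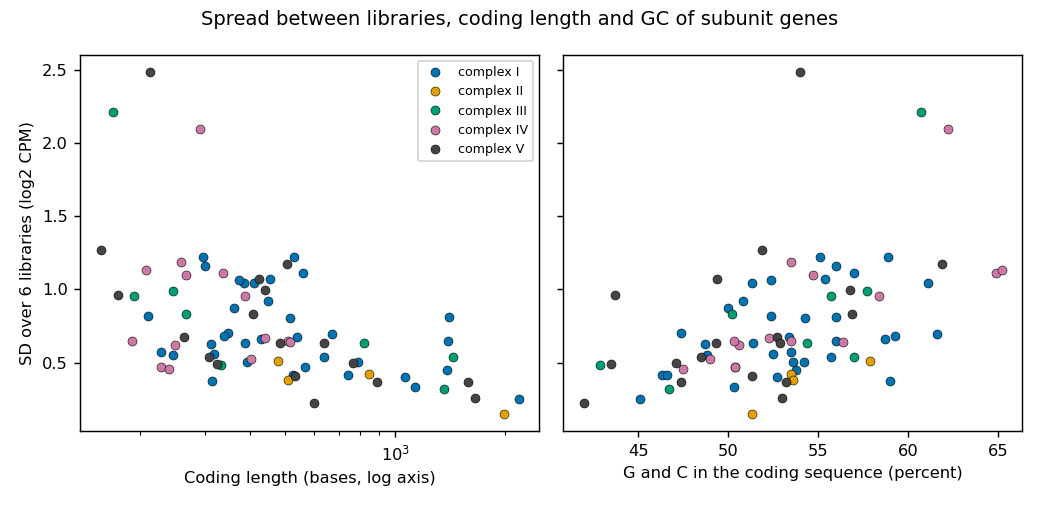
SD of log2 CPM over 6 libraries (vertical axis) against coding length (left, bases, log axis) and the percentage of G and C in the coding sequence (right) for the 79 tested subunit genes, coloured by complex. Median SD is 0.96 for coding lengths under 300 bases and 0.42 for 600 or more, and 0.49 for GC under 50% against 0.97 for 55% or more.

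Members were short, with a median coding length of 423 bases against 1392 for tested protein-coding genes, at nearly the same coding GC (53.2% against 52.8%). They were also abundant, at a median of 42.0 CPM per kilobase of exon against 6.77. Other genes with coding lengths under 300 bases (221 genes) had a median log2 fold change of -0.35 and a median deviation of 0.85 in DMSO b, and those of 600 or more -0.02 and -0.06. Exons of 30 members overlap those of another gene in the annotation, and 20 members have a near copy elsewhere (at least 95% identity over at least 80% of the coding sequence). Counts on such copies reached 5.95% of the gene's own for Uqcr10, 4.27% for Atp5l and 2.45% for Cox7c. With offsets for GC content and length in each library, the members' median log2 fold change was -0.50, close to the value without them. It was -0.31 with the replicate block added. These offsets used the length of a gene's exon union and the GC of its longest transcript, not coding length and coding GC. The 2 lengths can differ widely, as in Atp5l with 6443 exon bases and 309 coding bases. Offsets for coding length and coding GC were not tested. Without DMSO b, in a fit that used no offsets, the members' median was 0.23. The part of length, GC or cell make-up in that library's values was not tested.

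Other genes of the pathway were taken from lists. Of 44 tested assembly factors 31 lay below 0 (median log2 fold change -0.09). Another list joined electron carriers, genes of coenzyme Q synthesis and subunits with other symbols. Of its 14 tested genes 9 lay below 0 (median -0.04). Cox17 was on both lists. Of 12 tested subunits encoded in mitochondrial DNA 9 lay below 0 (median -0.16), of 13 citrate cycle genes 9 (median -0.18) and of 17 regulators of mitochondrial biogenesis 8 (median 0.01). Among 75 mitochondrial ribosome genes 67 lay below 0 (median -0.32), and among 82 cytosolic ribosomal protein genes all 82 (median -0.67). In edgeR's test and in DESeq2 0 genes of each list were called, and at an unadjusted p under 0.05 edgeR had 1, the cytosolic ribosomal gene Rpl39l, named after its value was seen. Without DMSO b the medians were 0.15, 0.24, -0.11, 0.06, -0.12, 0.23 and 0.22 in the same order. That order was assembly factors, the list with carriers and coenzyme Q genes, mitochondrially encoded subunits, citrate cycle, regulators, and mitochondrial and cytosolic ribosomes.

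The high values of DMSO b were shared by both lists of ribosomal proteins and not by genes of the mitochondrial genome. In that library the median deviation was 1.38 for cytosolic and 0.92 for mitochondrial ribosomal proteins, 0.35 for assembly factors, and -0.14 for mitochondrially encoded subunits. Cytosolic ribosomal proteins took 5.71% of gene counts there and 2.01% to 2.48% elsewhere. The mitochondrially encoded subunits took 0.829% there and 1.15% to 1.83% elsewhere, so the summed nuclear and mitochondrial genes of the chain stood on opposite sides. DMSO b was still the highest library for 3 of the 12 tested mitochondrially encoded genes. Their median coding GC was 37.4%, against 53.2% for members, and the part of GC in this contrast was not tested. The gene mt-Co1, for the catalytic core subunit of complex IV, measured 8825, 5892 and 5231 CPM with thiothixene and 7388, 3791 and 10670 CPM with DMSO. Its highest and lowest levels were thus both in DMSO libraries, in mice c and b.

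Genes acting beside the members followed either pattern. Cyc1, the cytochrome c1 subunit of complex III that the symbol rule does not take in, measured 38.5, 74.8 and 90.7 CPM with thiothixene and 62.5, 164 and 18.1 CPM with DMSO. Atpif1, the inhibitor that keeps the ATP synthase from running backwards, measured 109, 136 and 124 CPM against 122, 392 and 130 CPM, a log2 fold change of -0.80 (SE 0.47) that became -0.03 without DMSO b. Both were highest in that library. Nrf1, a transcription factor of respiratory genes, measured 39.5, 38.7 and 40.4 CPM against 47.3, 39.8 and 47.1 CPM, a log2 fold change of -0.18 (SE 0.26). Ppargc1b, a coactivator of mitochondrial biogenesis, measured 9.64, 9.88 and 7.20 CPM against 6.92, 3.02 and 8.70 CPM (0.51, SE 0.46). Neither of these regulators was highest in DMSO b, and Ppargc1b had the largest log2 fold change of the 17 tested regulators. DMSO b was the highest library for 5 of the 17 (29.4%), against 33.9% of all tested genes.

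Promoter sequence was a further property that the symbol rule did not use. RefSeq promoters (GRCm38.p6), cut to the 250 bases before the start, were found for 68 members (73 promoters), and 5 motifs were searched on both strands. The NRF1 motif GCGCATGCG was present in 6 of 73 (8.2%), against 1.4% of 32851 promoters of the same length, in Ndufa8, Ndufa11, Cox6a1, Atp5g2, Atp5k and Atp5l. The ETS motif CCGGAAG, which GABP binds, was present in 12 (16.4%), against 6.9%. The shares for the SP1 motif GGGGCGGGG were 13.7% and 10.4%, and for TATAAA 9.6% and 12.4%. The YY1 motif AAGATGGCG was present in 1 (1.4%), Atp5j, against 0.6% of all promoters. Median GC of these windows was 56.0% for members and 52.4% for all promoters. The Cox6a1 window is shown because it holds matches to both the NRF1 and the ETS motif, as that of Atp5l also does, in a gene whose levels are given above. Capitals mark the matches. In the first run the NRF1 motif matches on both strands, 1 base apart, and the second run is the ETS motif read on the other strand.
Cox6a1, chr5:115348959-115349208, minus strand: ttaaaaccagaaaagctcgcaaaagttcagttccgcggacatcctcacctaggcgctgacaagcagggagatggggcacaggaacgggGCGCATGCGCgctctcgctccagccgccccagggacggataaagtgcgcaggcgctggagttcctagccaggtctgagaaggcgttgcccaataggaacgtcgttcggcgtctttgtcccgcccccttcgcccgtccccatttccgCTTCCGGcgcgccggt
Members with the NRF1 motif had a median log2 fold change of -0.56 (6 genes) against -0.51 without it (58 genes), and with the ETS motif -0.61 (12 genes) against -0.50 (52 genes). In Atp5k, the member of widest range with the NRF1 motif, the match lay 50 to 41 bases before the RefSeq start. A match describes these letters and is not evidence of binding.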

How the data were processed

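RNA from 6 libraries (3 mice, each with a thiothixene and a DMSO library) was read as paired ends, and replicates come from separate mice, per the labels' protocols. The authors deposited raw counts per gene, whole numbers for 56691 genes plus 5 rows of reads not given to a gene. Those 5 rows, among them reads outside any gene (43.07% to 44.35% of all rows' counts), stayed out of library sizes and tests. Per the submitters' processing notes, which give no roles, the tools were STAR 2.7.11b, Trim Galore 0.6.10, FastQC 0.11.8 and DESeq2 1.44, with mm10. How reads were counted, whether by strand and on which annotation, is not given in the sources used here.

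Identifiers were matched without version to GENCODE (GRCm38), and 52073 of 56691 matched. Suffixed symbols such as Ndufa4l2 and Cox7a2l were kept as members. The members and lists were chosen with earlier results of these data known. Differences were tested with edgeR 4.0.16 under R 4.3.3 (TMM scaling, robust quasi-likelihood), after its expression filter (14856 genes left), with Benjamini-Hochberg adjustment at 0.05. CPM use effective library sizes, deviations a prior count of 2, and levels per kilobase the union of a gene's exons. A standard error is the size of the log2 fold change over the root of its F statistic. The procedure was tested on simulated data.

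Genes were named by rule: called members, and in each complex the 2 of highest CPM and those of largest and smallest log2 fold change. The complex II genes, the isoform sets and Atpif1 were added, and of each related list the 2 of highest CPM, of which a few are given. One member that this rule picks is left out of the text. Other genes were singled out after their values were seen.

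Libraries of a mouse are paired through the mouse letter of their titles. The correlation of paired libraries' deviations from their group means was -0.13 in mouse a, 0.32 in mouse b and -0.30 in mouse c. Between a thiothixene and a DMSO library of different mice it ran from -0.41 to 0.49, highest for thiothixene a and DMSO c. Libraries of the same mouse were thus not the most alike. Alternatives were the mouse as a replicate block, spline offsets (5 degrees of freedom), RLE size factors, no filter, DESeq2 1.42.0, stricter symbols and leaving out libraries. The offsets were for the GC content of a gene's longest transcript and the length of its exon union. Intervals and limits from counts of 0 (3 counts) are at 95%, and the latter cover counting error only.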

Additional observations from a re-analysis of the deposited data

How the results depend on the processing

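The choice of libraries decided the direction of the subunit genes, by whether DMSO b was kept, and whether all 3 libraries that stood apart were. Called genes over all tested genes were 0, but 2 in DESeq2, 1 with no low-count filter and 1105 without the 3 libraries, where 13 members were called. In the fits that left out a single library edgeR called 0 genes. Median log2 fold changes without the 3 libraries were 0.25 for all members, 0.31 for complex I, 0.27 for complex III, 0.31 for complex IV and 0.20 for complex V. Leaving out single libraries gave -0.75 to 0.23 for all members, -0.77 to 0.24 for complex I, -0.84 to 0.35 for complex III, -0.88 to 0.39 for complex IV and -0.74 to 0.14 for complex V, the highest each time without DMSO b. For complex II it gave -0.40 to 0.12. The share of gene counts, as a ratio, ran from 0.704 to 1.072 for all members, 0.661 to 1.125 for complex I, 0.656 to 1.095 for complex III and 0.611 to 1.169 for complex IV, again highest without that library. The cause was not tested.

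With the replicate block, which pairs libraries by mouse, the median log2 fold change was -0.27 for all members, -0.29 for complex I, -0.11 for complex II, -0.31 for complex III, -0.23 for complex IV and -0.26 for complex V, and it changed no call. With RLE size factors the median was -0.53, with no filter -0.46, in DESeq2 -0.52 and with stricter symbols (77 genes) -0.51. The other denominator, without mitochondrially encoded genes and the 100 most abundant, gave a ratio of 0.79.

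Without the 3 libraries 73 of 79 members lay above 0. Only members whose log2 fold change with all 6 libraries is printed above are listed here, and those that turned were the following. For complexes I and II they were 0.34 for Ndufa4, 0.62 for Ndufa2, 0.047 for Sdha, 0.14 for Sdhc and 0.062 for Sdhb. For complex III they were 0.10 for Uqcrc1, 0.091 for Uqcrc2 and 0.90 for Uqcr11. For complex IV they were 0.24 for Cox4i1, 0.27 for Cox6a1, 0.31 for Cox7b and 0.16 for Cox4i2. For complex V they were 0.25 for Atp5b, 0.14 for Atp5a1 and 1.26 for Atp5k. Leaving out single libraries gave -0.75 to 0.15 for Ndufa4, -0.19 to 0.17 for Ndufs1, -1.45 to 0.71 for Ndufa2, -0.38 to 0.21 for Sdhc, -0.59 to 0.042 for Sdhb, -0.72 to 0.16 for Uqcrc1, -0.32 to 0.12 for Uqcrc2, -1.45 to 1.36 for Uqcr11, -0.96 to 0.094 for Cox4i1, -1.12 to 0.54 for Cox6a1, -0.50 to 0.21 for Cox7b, -0.39 to 0.18 for Atp5b, -0.28 to 0.087 for Atp5a1 and -1.59 to 1.56 for Atp5k. Ndufs1 was at 0.01 with no low-count filter and at 0.01 with the replicate block, and Uqcr11 at 0.088 with offsets for GC content and length and the block.

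Precision was limited by the spread between libraries. The biological coefficient of variation was 46%, the median standard error of a member's log2 fold change was 0.48, and no member's interval excluded 0. Uqcr11, Atp5k, Cox4i2, Cox6a2 and Cox7a1 had libraries with few counts.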
